A study of Homo sapiens with 8 samples.

Results

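Genes of the glutathione and thioredoxin systems were examined in MHCC-97H cells, a human hepatocellular carcinoma line, after exposure to lenvatinib, an inhibitor of VEGF and FGF receptor kinases. The 9 genes are GCLC, GCLM, GSR, TXN, TXNRD1, PRDX1, SRXN1, NQO1 and OSGIN1. They were taken by gene symbol from the 20263 genes of the deposited expression table, in which each symbol stands in 1 row. Cells received 40, 60, 80 or 100 µM lenvatinib for 24 hours, with 1 library at each dose, or DMSO, the drug's solvent, for the same time, with 4 libraries. All groups are the same line, with no genetic change labelled, and nothing in the labels tells whether libraries of DMSO came from cultures grown apart. The p-values below therefore reflect no more than how far these libraries vary, and that variation may be technical.

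Glutathione and thioredoxin are the main thiol reducing systems of the cell. GCLC and GCLM form glutamate-cysteine ligase, which makes the first intermediate of glutathione, and GSR returns oxidised glutathione to its reduced form with NADPH. TXNRD1, a selenoprotein, reduces thioredoxin (TXN) with NADPH, and thioredoxin in turn reduces peroxiredoxins such as PRDX1, which remove hydrogen peroxide. Overoxidised peroxiredoxins are repaired by sulfiredoxin, encoded by SRXN1. NQO1 reduces quinones by transfer of a pair of electrons, and OSGIN1 encodes a growth inhibitor induced by oxidative stress. Many of these genes are transcribed by NRF2, a factor that binds antioxidant response elements together with small MAF proteins once it escapes degradation through KEAP1.

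The core of that element, TGACNNNGC, was searched on both strands in windows of 250 bases before to 50 bases after annotated start sites (RefSeq, GRCh38.p14). Windows were at hand for 7 of the 9 genes, GSR and PRDX1 being the others, and TXNRD1 had 2 windows at different starts. The core was found in 3 of these 8 windows, against 13.3% of 35116 windows of that length. The 3 were that of GCLM and both of TXNRD1, so 2 of the 7 genes held it. The GCLM match begins 34 bases before the start on the opposite strand. The upstream TXNRD1 window holds matches that begin 99 and 8 bases before the start, and the downstream window holds a match that begins 102 bases before the start. These windows are shown because they hold the core, and that of OSGIN1, the gene with the largest change, because it does not. Capitals mark the core, and each sequence runs 5′ to 3′ along the gene's strand.
GCLM, chr1:93909381-93909680, minus strand: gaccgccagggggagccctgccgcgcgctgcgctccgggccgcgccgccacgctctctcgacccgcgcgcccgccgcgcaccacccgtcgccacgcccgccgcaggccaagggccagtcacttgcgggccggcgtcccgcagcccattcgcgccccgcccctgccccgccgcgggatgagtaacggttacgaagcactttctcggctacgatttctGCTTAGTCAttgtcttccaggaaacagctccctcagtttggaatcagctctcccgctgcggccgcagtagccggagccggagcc
TXNRD1, upstream start, chr12:104215529-104215828, plus strand: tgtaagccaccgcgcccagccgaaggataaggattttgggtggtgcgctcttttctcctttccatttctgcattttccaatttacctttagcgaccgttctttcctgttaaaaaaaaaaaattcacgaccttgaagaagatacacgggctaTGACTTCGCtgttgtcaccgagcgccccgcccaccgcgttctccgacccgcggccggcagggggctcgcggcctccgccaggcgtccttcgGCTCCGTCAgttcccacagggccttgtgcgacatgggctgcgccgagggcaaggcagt
TXNRD1, downstream start, chr12:104286782-104287081, plus strand: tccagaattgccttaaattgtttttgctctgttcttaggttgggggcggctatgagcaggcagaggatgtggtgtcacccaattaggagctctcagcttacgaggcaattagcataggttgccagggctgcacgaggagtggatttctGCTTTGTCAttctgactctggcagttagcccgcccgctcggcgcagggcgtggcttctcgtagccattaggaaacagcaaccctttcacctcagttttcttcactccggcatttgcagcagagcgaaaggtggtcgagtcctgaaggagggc
OSGIN1, chr16:83952990-83953289, plus strand: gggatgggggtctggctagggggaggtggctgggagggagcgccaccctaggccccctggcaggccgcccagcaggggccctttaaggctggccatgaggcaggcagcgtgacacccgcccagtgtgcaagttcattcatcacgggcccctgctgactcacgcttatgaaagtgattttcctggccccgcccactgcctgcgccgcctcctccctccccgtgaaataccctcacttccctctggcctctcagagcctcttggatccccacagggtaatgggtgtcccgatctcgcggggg
A match is a stretch of letters and was not tested as a binding site, and the absence of a match says only that these letters are not in the window. The windows of OSGIN1, GCLC and NQO1 lie wholly inside the spans given for these genes below. The sequence before the outer start of those spans was therefore not searched.

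Library totals ran from 10181973 counts, at 60 µM, to 37384578. Hepatocyte markers were low throughout: APOB and TTR had 0 counts in all 8 libraries. ALB had 6, AFP 2 and APOA1 10, all of them in the 60 µM library. HNF4A and FGB alone passed 1 CPM, at means of 5.32 and 3.07 CPM. HNF4A had 8 to 80 counts with lenvatinib and 241 to 350 in DMSO, and FGB had 0 to 30 and 65 to 349. The summed level of the 9 hepatocyte markers was 1.95 to 3.54 CPM (counts scaled to the library total) with lenvatinib and 9.72 to 20.7 CPM in DMSO, while the simple epithelial keratins KRT8 and KRT18 were abundant, at means of 5144 and 3348 CPM over the 8 libraries. The other markers listed for hepatocellular lines were nearly absent, GPC3 at 0 counts, KRT19 at 4, all at 60 µM, and EPCAM at a mean of 0.47 CPM. The 5 leukocyte markers, of which PTPRC and CD3E were at 0 and CD68 alone passed 1 CPM, summed to 3.85 to 6.48 CPM with lenvatinib and 7.47 to 11.5 CPM in DMSO. The 6 fibroblast markers summed to 42.5 to 87.9 CPM with lenvatinib and 67.4 to 100.4 CPM in DMSO. COL1A1, PDGFRB and DCN among them averaged 31.4, 32.4 and 14.1 CPM, COL3A1 and LUM less than 1 CPM, and COL1A2 had 0 counts. The 4 endothelial markers summed to 0 to 3.16 CPM with lenvatinib and 1.66 to 2.35 CPM in DMSO. The part of these shifts in the results below was not tested. The libraries also differed along the GC content of genes. The GC slope, which says how far a library's log2 levels depart from the average library for every 10 percentage points of transcript GC content, was 0.67, 1.94, -0.60 and -0.63 at 40, 60, 80 and 100 µM, against 0.27, -0.52, -1.02 and -0.12 in DMSO 1 to 4. The 80 and 100 µM libraries thus lay within the range of the DMSO libraries, and the 40 and 60 µM libraries lay above it.

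PRDX1 was the most abundant of the 9 transcripts and GCLC the least. On the TPM scale, which allows for transcript length and was deposited by the authors, the medians over the 8 libraries were 2030 for PRDX1, 447 for TXN, 428 for NQO1, 139.8 for TXNRD1, 85.96 for SRXN1, 69.4 for GSR, 44.9 for OSGIN1, 14.4 for GCLM and 10.7 for GCLC. PRDX1 stood apart from the others at 1249 to 2499 TPM. The ranges of neighbours in this order overlapped below it, TXN at 264 to 794 TPM and NQO1 at 298 to 561 TPM among them. The genes also differed in how far they varied across libraries: the highest library was 1.88 times the lowest for NQO1 and 4.43 times for SRXN1, but 33.7 times for GCLC and 107 times for TXNRD1. In all, the 9 genes took 0.241%, 0.190%, 0.377% and 0.341% of the counts at 40, 60, 80 and 100 µM, against 0.154%, 0.213%, 0.259% and 0.187% in DMSO 1 to 4. The 80 and 100 µM libraries were above every DMSO library in this share, and the 40 and 60 µM libraries were inside the DMSO range.

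**Figure D1:**
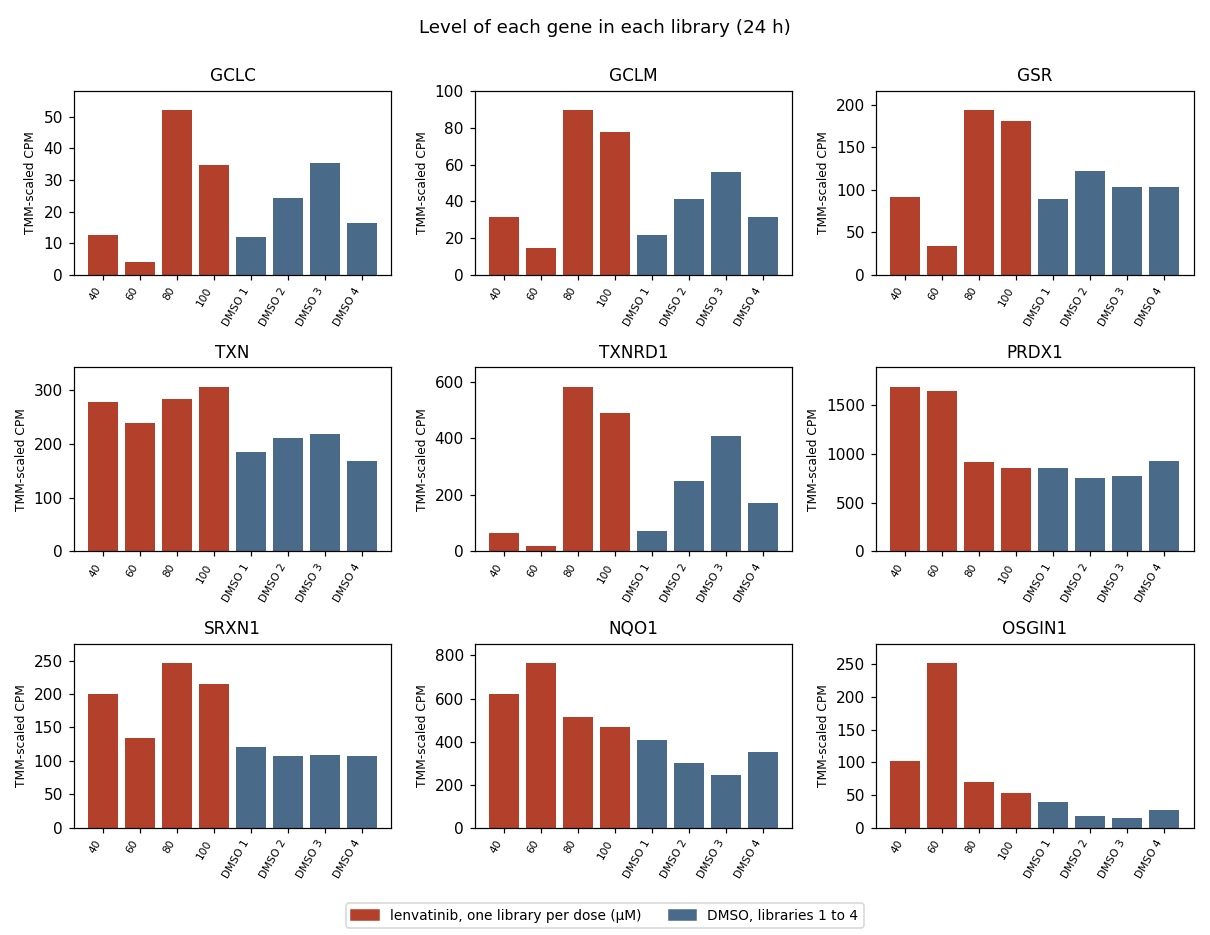
Level of each gene in each library, in CPM scaled by the trimmed mean of M values (TMM); red bars are the lenvatinib libraries by dose in µM and blue bars the DMSO libraries, with no replicate within a dose. SRXN1, NQO1, OSGIN1 and TXN are above every DMSO library at each dose (by library totals SRXN1 and TXN are not, at 60 µM), whereas GCLC, GCLM, GSR and TXNRD1 are high at 80 and 100 µM and low at 60 µM.

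The subunits of glutamate-cysteine ligase were highest at 80 and 100 µM and lowest at 60 µM. GCLM (ENSG00000023909, GRCh38 chromosome 1, 93885205 to 93909456, minus strand), the modifier subunit, was measured at 31.3, 14.8, 89.7 and 77.7 CPM at 40, 60, 80 and 100 µM, against 21.7, 41.1, 55.9 and 31.3 CPM in DMSO 1 to 4 (TMM-scaled, as all CPM from here on). GCLC (ENSG00000001084, chromosome 6, 53497341 to 53616970, minus strand), the catalytic subunit, was measured at 12.6, 4.19, 52.0 and 34.8 CPM with lenvatinib and at 11.9, 24.3, 35.4 and 16.4 CPM in DMSO. For both genes the 80 µM library was above every DMSO library and the 60 µM library below every one, so the groups overlapped. The GCLC value at 60 µM rests on 26 counts, for which the exact 95% Poisson interval is 2.73 to 6.13 CPM and covers counting error only. The TPM of GCLM was 1.84, 2.85, 1.31 and 1.72 times that of GCLC at 40, 60, 80 and 100 µM, against 1.41, 1.32, 1.19 and 1.39 times in DMSO 1 to 4. The ratio was thus above the DMSO range at 40, 60 and 100 µM and inside it at 80 µM.

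Glutathione reductase followed the ligase. GSR (ENSG00000104687, chromosome 8, 30678061 to 30727926, minus strand) was measured at 91.5, 33.8, 193 and 180 CPM at 40, 60, 80 and 100 µM, against 88.9, 122, 103 and 104 CPM in DMSO 1 to 4. The 80 and 100 µM libraries were above all DMSO libraries, the 40 µM library was inside their range and the 60 µM library was below it.

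Thioredoxin and its reductase differed in how widely they varied. TXN (ENSG00000136810, chromosome 9, 110243811 to 110256640, minus strand) was measured at 278, 238, 284 and 307 CPM with lenvatinib at rising dose, against 185, 212, 219 and 168 CPM in DMSO 1 to 4, and the groups did not overlap on this scale. TXNRD1 (ENSG00000198431, chromosome 12, 104215779 to 104350305, plus strand) was measured at 65.6, 20.1, 582 and 491 CPM with lenvatinib and at 71.6, 249.0, 407 and 171 CPM in DMSO. Its 40 and 60 µM libraries were below every DMSO library and its 80 and 100 µM libraries above every one. The TPM of TXN was 15.4, 55.2, 1.47 and 1.76 times that of TXNRD1 at the rising doses, against 9.85, 2.91, 1.59 and 2.96 times in DMSO 1 to 4, so this ratio was widest where the GC slope was highest.

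On the TMM scale the peroxiredoxin was highest at 40 and 60 µM and its repair enzyme at 80 and 100 µM. PRDX1 (ENSG00000117450, chromosome 1, 45511036 to 45523047, minus strand) was measured at 1691, 1646, 919 and 860 CPM at 40, 60, 80 and 100 µM, against 857, 756, 770 and 927 CPM in DMSO 1 to 4. The 40 and 60 µM libraries were above all DMSO libraries, and the 80 and 100 µM libraries lay inside the DMSO range. This order of doses changed with the scale. In TPM PRDX1 was at 2329, 1632, 2499 and 2273 at 40, 60, 80 and 100 µM. By library totals it was at 1314.5, 1004, 1177 and 1093 CPM, so 60 µM was the lowest dose on both of these scales. SRXN1 (ENSG00000271303, chromosome 20, 646615 to 653370, minus strand) was measured at 200.4, 134, 246 and 215 CPM with lenvatinib and at 120.4, 107, 109 and 108 CPM in DMSO, without overlap on this scale. The TPM of PRDX1 was 25.5, 34.3, 11.9 and 12.7 times that of SRXN1 at the rising doses, against 20.5, 20.3, 22.1 and 27.2 times in DMSO. At 80 and 100 µM there was thus less PRDX1 transcript per SRXN1 transcript than in any DMSO library, and at 60 µM more. Exons of MMACHC lie on the strand opposite to PRDX1. The strand setting of the counting is not given in the sources used here, so reads in the overlap cannot be told apart, and MMACHC was assigned 10097 counts over the 8 libraries. GENCODE names 7 pseudogenes after TXN and 1 after PRDX1, none with a row in the table, and how reads shared with them were counted is not given in the sources used here.

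NQO1 and OSGIN1 were above every DMSO library at every dose. NQO1 (ENSG00000181019, chromosome 16, 69706996 to 69726951, minus strand) was measured at 623, 764, 513 and 469 CPM at 40, 60, 80 and 100 µM, against 409, 301, 246 and 350.2 CPM in DMSO 1 to 4. OSGIN1 (ENSG00000140961, chromosome 16, 83948282 to 83966332, plus strand) was measured at 103, 251, 69.7 and 53.8 CPM with lenvatinib and at 39.5, 18.0, 14.6 and 27.3 CPM in DMSO. On this scale both were highest at 60 µM, the library with the highest GC slope. OSGIN1 was also highest there in TPM and by library totals. NQO1 was not: it was highest at 80 µM, at 561 TPM and 657 CPM by library totals. At 60 µM NQO1 had 480 TPM and 466 CPM by library totals. A change in the share of cells that express a gene and a change in its RNA in each cell cannot be told apart in these bulk samples.

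Counted over the 9 genes, 4 had all lenvatinib libraries above all DMSO libraries, SRXN1, NQO1, OSGIN1 and TXN, and none had all of them below. Over all 11827 genes tested the share above was 3.08%. The separation of NQO1 and OSGIN1 was also present in CPM by library totals and in the deposited TPM. That of SRXN1 and TXN was not: by library totals SRXN1 had 81.8 CPM at 60 µM, against 103 to 144 CPM in DMSO, and TXN had 145 CPM at 60 µM, against 158 to 289 CPM in DMSO. On both of those scales 2 of the 9 genes were separated, where the share of all genes was 4.96% by library totals and 4.84% in TPM. The TMM factors ranged from 0.610 at 60 µM to 1.32 in DMSO 3.

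The first comparison set the 4 lenvatinib libraries against the 4 DMSO libraries, the comparison that the labels set up. The log2 fold changes of all 9 genes were above 0 and had a median of 0.51, where the median of all genes tested was -0.11 and 43.8% of genes were positive. OSGIN1 had the largest, at 2.26 ± 0.56 (SE), with 119 ± 90.4 CPM with lenvatinib and 24.8 ± 11.1 CPM in DMSO (SD, n = 4 each). SRXN1 followed NQO1 closely, at 0.84 ± 0.26 and 0.86 ± 0.29. The changes of GCLM (0.51 ± 0.57), GCLC (0.24 ± 0.71), GSR (0.26 ± 0.49) and TXNRD1 (0.37 ± 0.96) were smaller than their standard errors, and without the 80 µM library they were at 0.14, -0.35, -0.032 and -0.22. None of the 9 was called at an adjusted p under 0.05 with edgeR's quasi-likelihood test and Benjamini-Hochberg adjustment (lowest adjusted p = 0.874), where 0 of 11827 genes, 0%, were called. At an unadjusted p under 0.05 there were 523 genes, 3 of them SRXN1, NQO1 and OSGIN1. DESeq2 called 94 genes, among them OSGIN1 (adjusted p = 0.0136) and SRXN1 (adjusted p = 0.0247), and limma-voom called 0. In this fit the variation from dose to dose is part of the error.

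**Figure D2:**
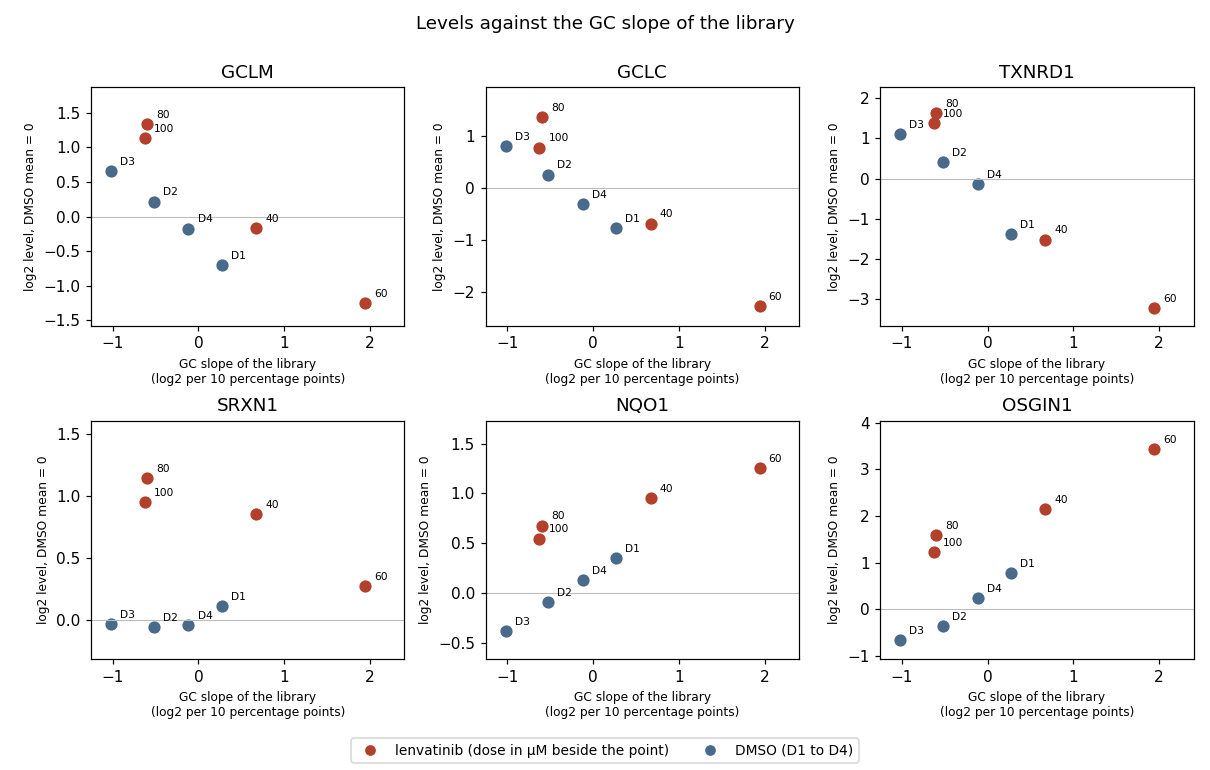
Log2 level of 6 of the genes, relative to the mean of the DMSO libraries, against the GC slope of each library; red points are lenvatinib libraries with the dose in µM beside them and blue points are DMSO libraries. On this TMM scale the levels of GCLM, GCLC and TXNRD1 fall and those of NQO1 and OSGIN1 rise with the slope. The 80 and 100 µM points lie above the DMSO point with the nearest slope, DMSO 2, in all 6 panels.

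Each gene's level followed the GC slope of the library to its own degree. Among the DMSO libraries alone, TXNRD1, GCLC and GCLM were ordered DMSO 3, 2, 4, 1 from high to low. This is the order of a rising GC slope. On the TMM scale NQO1 and OSGIN1 had the reverse order. The TMM factors fell as the slope rose, at 1.32, 1.16, 0.982 and 0.855 in DMSO 3, 2, 4 and 1. By library totals OSGIN1 kept its order, but NQO1 was at 349.6, 349.5, 325.7 and 343.7 CPM in DMSO 1 to 4. In TPM neither gene followed the slope exactly, with NQO1 at 421, 337, 340 and 298 TPM. SRXN1 differed little among the DMSO libraries on the TMM scale, at 107 to 120.4 CPM. Levels in the fit below are TMM-scaled. In a linear fit of log2 level on group and GC slope, the level changed by -1.89 per unit of slope for TXNRD1, by -1.30 for GCLC, by -0.82 for GSR and by 0.84 for OSGIN1. Transcript GC content was 37.3% for GCLM, 44.3% for GCLC, 44.8% for TXNRD1 and 63.4% for OSGIN1, against a median of 49.1% over the genes tested. The sign of the coefficient did not follow GC content in every gene: NQO1 had 46.0% and a coefficient of 0.31, SRXN1 53.6% and -0.22, and TXN 42.8% and -0.14.

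With the GC slope as a covariate, 5 of the 9 genes rose with lenvatinib and none fell. They were GCLM, whose log2 fold change was 0.96 ± 0.12 (SE; edgeR adjusted p = 0.00892), OSGIN1 at 1.52 ± 0.16 (adjusted p = 0.00546), SRXN1 at 0.96 ± 0.14 (adjusted p = 0.0170), NQO1 at 0.64 ± 0.12 (adjusted p = 0.0366) and TXN at 0.59 ± 0.12 (adjusted p = 0.0371). Of all genes tested, 1.43% were called higher. TXNRD1, at 0.89 ± 0.21 (adjusted p = 0.0581), and GCLC, at 0.72 ± 0.16 (adjusted p = 0.0545), were not called, nor were GSR, at 0.52 ± 0.20 (adjusted p = 0.197), and PRDX1, at 0.33 ± 0.17 (adjusted p = 0.327). With the slope taken out of the log2 levels, the 4 lenvatinib libraries lay above the 4 DMSO libraries for 8 of the 9 genes, all but GSR, where the share of all genes was 9.21%. The coefficient taken out came from the linear fit on group and GC slope, which favours a narrow spread within each group. The calls rest on single libraries. Leaving out 80 µM or 100 µM ended every call among the 9 genes. Leaving out DMSO 1 or DMSO 2 brought the count to 2, DMSO 3 to 3 and DMSO 4 to 1. It was 7 with 40 µM left out and 8 with 60 µM left out. Calls over all genes, in either direction, moved as well, from 343 in the full fit to 977 without 40 µM and 2759 without 60 µM. They numbered 0 and 5 without 80 and 100 µM, and 29, 50, 184 and 26 without DMSO 1 to 4. In these fits the log2 fold change of each of the 9 genes stayed positive. The fit gives each gene 1 coefficient on the GC slope for both groups. The slope varied more among the lenvatinib libraries (SD 1.22, n = 4) than among the DMSO libraries (SD 0.55, n = 4), and at 40 and 60 µM it was outside the DMSO range. Whether the slope comes from library preparation or from the cells cannot be told apart here, so the covariate may also take out part of a response to the drug or its dose.

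**Figure D3:**
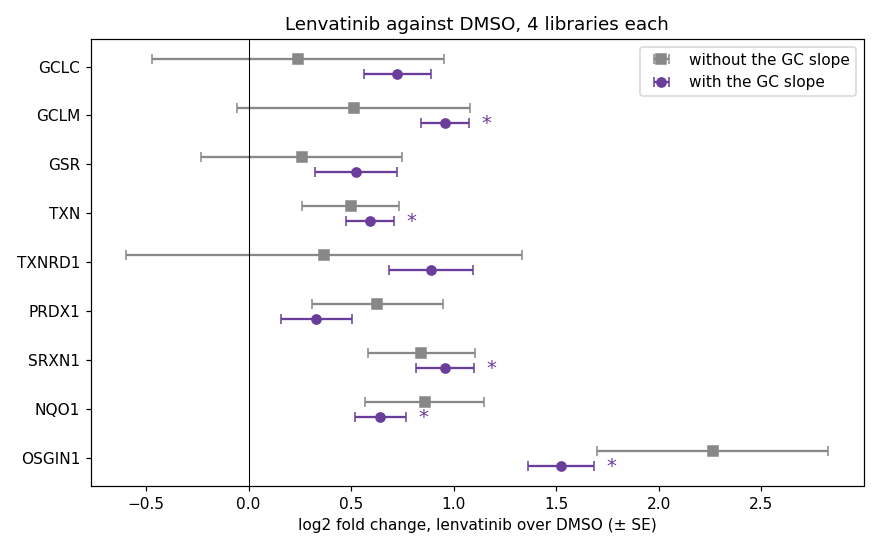
Log2 fold change of each gene, lenvatinib over DMSO (4 libraries each), without the GC slope (grey squares) and with it as a covariate (purple circles); bars are ± SE and an asterisk marks an adjusted p under 0.05. All 18 values are positive, and the standard error of TXNRD1 is 0.96 without the covariate and 0.21 with it.

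The 80 and 100 µM libraries were set against DMSO alone, since their GC slopes lie within the DMSO range. With the covariate 8 of the 9 genes were higher, all but PRDX1, where 9.69% of all genes were called higher. The log2 fold change of OSGIN1 was 1.75 ± 0.13, SRXN1 of 1.11 ± 0.08, TXNRD1 of 1.04 ± 0.20, GSR of 0.83 ± 0.11 and GCLC of 0.81 ± 0.17 (SE; edgeR adjusted p = 0.000588, 0.000485, 0.026, 0.00358 and 0.0188). PRDX1 had 0.19. Without the covariate the same libraries gave positive values for all 9 genes, 1.19 for GCLM and 1.29 for TXNRD1 among them, none of them called (lowest adjusted p = 0.295, for SRXN1). Each dose is 1 library in this comparison.

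Single libraries with close GC slopes were also set side by side, as a description without a test. The slope of the 80 µM library differed from that of DMSO 2 by -0.08 and that of the 100 µM library by -0.10. In both pairs all 9 genes were higher with lenvatinib, where 47.5% and 47.6% of all genes were. The median of the 9 log2 ratios was 1.10 at 80 µM and 0.64 at 100 µM, where that of all genes was -0.03 and -0.02. OSGIN1 was 3.86 and 2.98 times as high at 80 and 100 µM as in DMSO 2, TXNRD1 2.34 and 1.97 times, SRXN1 2.30 and 2.01 times, and GCLM 2.18 and 1.89 times. PRDX1 was nearest to equal, at 1.22 and 1.14 times. Against DMSO 3, whose slope is lower, 9 genes were higher at 80 µM and 8 at 100 µM, GCLC being at 0.984 times. The 40 µM library has no DMSO library as close. Its nearest, DMSO 1, differs by 0.40 in slope, and there 8 of the 9 genes were higher, with OSGIN1 at 2.60 times, PRDX1 at 1.97 times and SRXN1 at 1.66 times, while GCLC, GSR and TXNRD1 were at 1.06, 1.03 and 0.916 times. Against DMSO 4, which differs by 0.79, 6 of the 9 were higher, and GCLC, GSR and TXNRD1 were at 0.768, 0.883 and 0.384 times. These pairs share DMSO libraries and are not independent of one another.

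**Figure D4:**
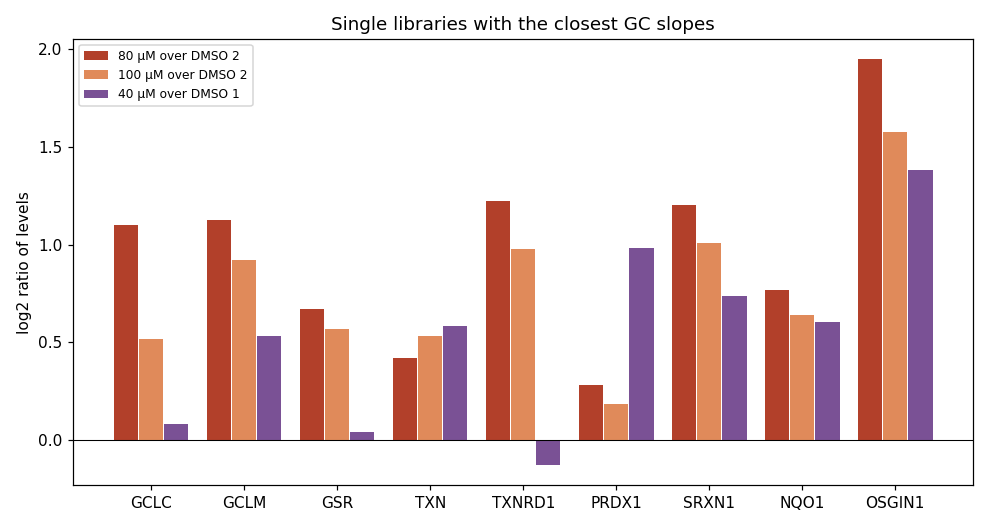
Log2 ratio of the level of each gene between a lenvatinib library and the DMSO library nearest to it in GC slope; each bar is 1 library over 1 library, so there is no error bar. All 18 bars over DMSO 2 are above 0, and over DMSO 1 TXNRD1 is the gene below 0.

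The doses were compared within the lenvatinib libraries as a slope per 20 µM. TXNRD1 had the highest slope, a log2 change of 1.27 ± 0.54 (SE) per step, and OSGIN1 the lowest, -0.57 ± 0.36. PRDX1 was at -0.38 ± 0.16 and SRXN1 at 0.11 ± 0.16. These slopes use TMM scaling, and the order of the doses for PRDX1 changes with the scale, as given above. No member was called, and of all genes 0%, with edgeR (lowest adjusted p = 0.295, 875 genes at an unadjusted p under 0.05, among them TXNRD1 and PRDX1). With the GC slope added to this fit, the slope was 0.23 ± 0.16 for TXNRD1, 0.12 ± 0.13 for OSGIN1 and -0.25 ± 0.10 for PRDX1, and again no member was called with edgeR (lowest adjusted p over all genes 0.517, 312 genes at an unadjusted p under 0.05, PRDX1 among them). Set against DMSO one at a time, where a lone library is assumed to vary like the DMSO libraries, the 60 µM library gave OSGIN1 as higher (log2 fold change 3.34 ± 0.51, edgeR adjusted p = 0.0260) and GSR as lower (-1.63 ± 0.36, adjusted p = 0.0301). At that dose 11.9% of all genes were called higher and 25.3% lower, so 1 of the 9 genes in each direction is near or below the share of all genes. At 40, 80 and 100 µM edgeR called 0 genes (0% in each), with 1019, 336 and 261 genes at an unadjusted p under 0.05.

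The genes varied together in sets. Over the 8 libraries, which share the GC trend, the Pearson correlations of log2 levels among GCLM, GCLC, GSR and TXNRD1 ran from 0.908 to 0.985 over 6 pairs, and NQO1 and OSGIN1 reached 0.988. Between these 4 genes and the other 5, 12 of 20 pairs were negative, down to -0.761 for TXNRD1 and PRDX1. Here the GC slope was taken out by a fit on the slope alone, without the group. All 36 pairs were then positive, from 0.350 for TXNRD1 and PRDX1 to 0.991 for SRXN1 and NQO1. These values describe 8 libraries in 2 groups and carry no test. The genes outside the set whose log2 level, GC slope taken out, came closest to the mean standardised level of the 9 genes were SLC35D1 (Pearson r = 0.997), EVI5L (0.993), MEGF9 (0.991), ATOH8 (0.991) and SLC35E2B (0.989), among 9435 genes that averaged 5 CPM or more.

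Among other genes of these pathways few were called. Of 76 tested genes in 8 lists of related enzymes and regulators, none was called without the covariate, and with it 4 rose and none fell, again beside 1.43% of all genes. Among them were MAFG, a small MAF partner of NRF2, whose log2 fold change was 1.93 ± 0.38 (SE; edgeR adjusted p = 0.0368), the glutathione S-transferase GSTA4 at 1.33 ± 0.24 (adjusted p = 0.0278) and the biliverdin reductase BLVRA at 0.67 ± 0.13 (adjusted p = 0.0371). MAFG was measured at 87.6, 126, 125 and 117 CPM at 40, 60, 80 and 100 µM, against 22.9, 57.6, 20.6 and 20.8 CPM in DMSO 1 to 4, without overlap. BLVRA did not overlap either, at 29.3 to 39.6 CPM with lenvatinib and 22.2 to 24.5 CPM in DMSO. Both statements hold for the TMM scale, and other scales were not compared for MAFG and BLVRA. Without the 80 µM library these calls, like those above, were lost, since no gene was called there.

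By list, medians given first without and then with the covariate, glutathione making and breakdown had 8 tested genes (0.52 and 0.06), with CHAC1, which degrades glutathione, at 2.34 and 1.07 and OPLAH, which recycles 5-oxoproline, at 1.09 and 0.26. SLC7A11, the cystine importer, was measured at 11.9, 12.1, 47.3 and 36.7 CPM at the rising doses, against 11.9, 17.3, 33.5 and 11.5 CPM in DMSO, and was not called (0.54 and 1.01). Glutathione peroxidases and glutaredoxins had 7 (-0.09 and -0.25). On the TMM scale GLRX3 and GLRX2, monothiol and dithiol glutaredoxins, were below DMSO at every dose. They were uncalled (-0.71 and -0.49 for GLRX3, -0.53 and -0.45 for GLRX2). Other scales were not compared for them, and the share of all genes below is not given here. GPX4, which reduces lipid peroxides, had values of opposite sign (0.64 and -0.15). Glutathione S-transferases had 13 (0.68 and 0.00), with the microsomal MGST3 at 1.03 and 0.41. Thioredoxins, reductases and peroxiredoxins beyond the members had 18 (0.25 and -0.13), with SESN2, a stress-induced sestrin, at 1.13 and 0.52, MSRB2, a mitochondrial methionine sulfoxide reductase, at 0.98 and 0.66, and TXNIP, the thioredoxin inhibitor, at 0.19 and 0.43. The 9 genes of NADPH supply had medians of 0.50 and 0.17, with IDH2, which makes NADPH in mitochondria, at 0.80 and 0.39. The superoxide, haem and iron list had 8 (0.60 and 0.27), with HMOX1, haem oxygenase, at 1.42 and 0.47. The machinery of selenoprotein synthesis had 6 (-0.27 and 0.06), with the elongation factor EEFSEC at 0.83 and 0.01 and SEPHS1 at -0.38 and -0.32. NRF2 and its partners had 7 (0.25 and 0.16), with SQSTM1, an adaptor that binds KEAP1, at 1.09 and 0.35. NFE2L2, which encodes NRF2, was measured at 3.98, 2.58, 31.8 and 35.0 CPM with lenvatinib and 7.57, 27.4, 57.8 and 14.5 CPM in DMSO (-0.54 and 0.16), and KEAP1 had 0.25 and 0.03. None of these further genes was called in either fit.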

How the data were processed

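RNA of 8 bulk libraries was measured by RNA-seq. The submitters' processing notes name FastQC, HISAT2, StringTie, bedtools and the build GRCh38, without roles. The authors deposited counts per gene together with TPM and FPKM values. Deposited counts were used for tests, TPM for levels between genes, and FPKM, deposited beside them, only to check that order (the same for 9 of 9 genes). The 9 genes and the lists of related genes were chosen with earlier results of these data known. Columns were matched to samples by their titles. Genes averaging 1 CPM or more were kept (11827 of 20263), and edgeR 4.0.16 (quasi-likelihood, TMM, Benjamini-Hochberg adjustment, called under 0.05) was fitted in R 4.3.3 across all of them: by arm, by arm with the GC slope, by dose within lenvatinib, and by dose against DMSO. GC content came from the longest GENCODE v29 transcript. DESeq2 1.42.0, limma 3.58.1 (voom), other scalings, filters, leaving out libraries and a replicate block were alternatives. Totals of 10181973 to 37384578 counts put 3 counts at 0.0802 to 0.295 CPM, and intervals and floors cover counting error only. Related genes named were NFE2L2, KEAP1, MAFG, HMOX1, SLC7A11, GPX4 and TXNIP, any called, and otherwise up to 2 of each list with the smallest unadjusted p in the fit without the GC slope. A gene that this rule names is not reported here. The scripts were tested on simulated counts.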

Additional observations from a re-analysis of the deposited data

Results flagged for a closer look

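SRXN1 in DMSO 1 stood apart from the other DMSO libraries, at 120.4 CPM, against 107 to 109 CPM in DMSO 2 to 4. Its gap to the nearest of them was 0.867 of the range of the 4 libraries, past Dixon's 95% limit. It was the only one of 18 sets of 4 libraries, 9 genes in each arm, to pass that limit, which chance passes in about 1 of 20 sets. All 4 lenvatinib libraries were above it, at 134 to 246 CPM.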

How the results depend on the processing

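With the GC slope, the log2 fold changes of the 9 genes were positive under all 162 alternative values run, but the number called moved from 5 to 8 with DESeq2, 8 with only 80 and 100 µM, 3 without a filter on low counts, 1 with a smooth GC offset, and 0 with only 40 and 60 µM (chosen after seeing the data); leaving out 1 library gave 0 to 8. The smooth GC offset moved NQO1 to 1.97, TXN to 2.02, GCLM to 1.73, PRDX1 to 0.86 and TXNRD1 to 0.57. It was 7 with limma-voom, DESeq2 size factors, library totals or a 5 CPM minimum. Calls among the 9 genes were all higher, while those over all genes are counted in either direction. Over all genes the calls with the GC slope numbered 343 of 11827, against 1981 with DESeq2 and 758 with limma-voom. They numbered 928 with DESeq2 size factors, 689 with library totals, 506 of 9669 with a 5 CPM minimum and 237 of 15588 without a filter. With only 80 and 100 µM there were 2456, and with the GC offset 6. With 1 library left out the calls over all genes ran from 0 to 2759. They numbered 345 with the replicate block and 0 with only 40 and 60 µM. Without the GC slope, DESeq2 called 2 of the 9 and edgeR 0, and 142 of 153 alternative values were positive. Those below 0 were TXNRD1 with limma-voom (-0.34), with 1 library left out GCLC (-0.35 to 0.62), GSR (-0.032 to 0.59) and TXNRD1 (-0.22 to 0.82), lowest without 80 µM in each, and TXNRD1 without 100 µM (-0.013), and GCLM (-0.69), GCLC (-1.37), GSR (-0.73) and TXNRD1 (-2.38) with only 40 and 60 µM. GCLM with 1 library left out ran from 0.14 to 0.85. With the replicate block GCLC was -0.094 and TXNRD1 -0.22, and 0 of the 9 genes were called without the GC slope and 6 with it. Same-numbered libraries correlated at 0.57, -0.45, 0.83 and -0.59, and 2 of the 4 lenvatinib libraries correlated best with their own number. Whether the replicate numbers pair the libraries cannot be told from these values, since libraries of the same number also differ in GC slope. By dose, where each dose is 1 library, the number of calls also moved with a 5 CPM minimum. The share of all genes called there is not given, so the move cannot be set against it. Genes with no overlap went from 4 to 2 by library totals and 2 in TPM (chosen after seeing the data). The cause was not tested.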
